A study of Mus musculus with 9 samples.

Results

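Large myelinated neurons without CGRP were described in cells dissociated from mouse trigeminal ganglia, the paired ganglia that hold the cell bodies of the sensory neurons of the head and face. CGRP, calcitonin gene-related peptide, is encoded by Calca. The neurons were chosen by their transcript counts. A barcode was a neuron if it had 500 to 7500 genes, at least 3 of the 6 neuronal genes Tubb3, Scn9a, Snap25, Nefl, Nefm and Uchl1, and no UMI (unique transcript) of Epcam. It was a large myelinated neuron without CGRP if it also had 3 or more UMIs of Nefh, at least 1 of S100b, 0 to 2 of Calca, and none of Ntrk2, Trpm8, Trpv1, Mrgprd or Cd34. Of 6997 barcodes, 3855 were neurons and 197 were members, which is 5.11% of the neurons (exact Clopper-Pearson 95% interval 4.44 to 5.85%). The single cells came from 9 Drop-seq runs on wild-type FVB/N mice of both sexes, aged 3 to 6 weeks by the labels, and each run pooled the ganglia of many animals. All barcodes shared this genotype and handling, and glia had been depleted before the cells were captured. The barcodes do not name their run, so everything below was 1 pooled sample, no difference could be tested and no p-value is given. Intervals cover counting error only, and spread between animals or runs is unknown.

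Large myelinated neurons of sensory ganglia carry signals along thick, fast-conducting axons, and most of them answer light touch, vibration or stretch. The heavy neurofilament subunit NEFH gives such axons their calibre, and the calcium-binding protein S100B is shared by these neurons and the glia that wrap them. Part of this class makes the receptor TrkB (Ntrk2), and part makes CGRP. By the gate, no UMI of Ntrk2 and at most 2 of Calca were detected in a member. The cell bodies of jaw-muscle proprioceptors lie mostly outside the ganglion, in the mesencephalic nucleus of the brainstem.

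The successive conditions left 1310 neurons with 3 or more UMIs of Nefh, 636 of these with S100b, 398 with at most 2 UMIs of Calca, and 254 without Ntrk2. The members held 974060 UMIs in all. The median cell had 3042 UMIs and 1717 genes, the shallowest had 1016 UMIs and the deepest 34723. The median of the other 3658 neurons was 3014 UMIs. Members were further set beside 126 neurons that met the same conditions but had a UMI of Ntrk2 (the Ntrk2 counterpart, median 4644.5 UMIs) and 95 that had 3 or more UMIs of Calca (the CGRP counterpart, median 5475 UMIs). Both counterparts were deeper than the members, and a shallow cell can miss a transcript it holds, which bears on conditions set as UMI counts. Levels are therefore given as CPM, in which the UMIs of a gene are summed over a group and scaled to the same total for every group. Shares of cells were also taken after each barcode had been thinned at random to 1000 UMIs, which every barcode reached. Of the barcode sequences, 6 occurred 2 times in the table, and 1 member carried such a sequence.

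By the gate itself, members had a median of 8 UMIs of Nefh (3 to 183) and 5 of S100b (1 to 62), and 156 of them had no UMI of Calca. Just inside the Nefh limit lay 21 members with 3 UMIs, with 393 CPM of the glial gene Mbp. Just outside it lay 28 neurons with 2 UMIs, with 4870.4 CPM of Mbp. These are pooled levels, and whether a few cells carried them was not tested. The 34 members with a single S100b UMI had 124 CPM of Runx1, a transcription factor of small unmyelinated neurons, where the 163 with 2 or more had 3.33 and 79 neurons at 0 had 179. At the Calca limit, 16 members with 2 UMIs had 262 CPM of the nociceptor sodium channel Scn10a. The 25 with 1 UMI had 50.5 and those with 0 had 41.9. The 3 neurons with 3 UMIs had none, and the 92 with 4 or more had 432. Members with a single S100b UMI or with 2 Calca UMIs therefore held more transcripts of these small-fibre genes than the other members.

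Of the 5 marker genes that name the group, Maf, Pcdh7 and Sparcl1 took no part in the gate. Maf encodes a transcription factor of large touch neurons and spans chromosome 8 from 115682942 to 115707794 on the minus strand (build GRCm38, as for all positions here). It had no UMI in the median member and 19 in the highest, and 138.6 CPM (95% Poisson interval 116 to 164) in members against 20.6 in the other neurons. Pcdh7, a protocadherin of cell adhesion (chromosome 5, 57717967 to 58133230, plus strand), had 82.1 CPM in members and 14.7 in the other neurons. Sparcl1, a secreted matrix protein (chromosome 5, 104079111 to 104113733, minus strand), had 473 CPM and 77.3. All 3 thus lay above the other neurons, but none was in most members. A UMI was seen in 35.0% of members for Maf, 22.8% for Pcdh7 and 45.2% for Sparcl1, and the 10 cells with the most held 41.5 to 48.4% of each gene's UMIs.

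Equal depth kept this order. At 1000 UMIs, 28.9% of members (22.7 to 35.8%) and 3.42% of the other neurons had Sparcl1, against 2.28% of 351 glial barcodes and 1.76% of 454 red blood cell barcodes, which serve as a background of free RNA. For Maf the shares were 12.2% and 1.78%, and for Pcdh7 8.12% and 1.72%. Glial barcodes had Maf in 8.83% and Pcdh7 in 6.55%, transcripts that glia also make, and red blood cell barcodes had them in 0.881% and 0%. The part of glial RNA in these levels was not tested. The 3 markers did not set the members apart from the Ntrk2 counterpart, in which Maf had 127 CPM, Pcdh7 99.8 and Sparcl1 621, all within 2-fold of the members. Against the CGRP counterpart all 3 had a ratio of 2 or more. At 1000 UMIs, however, the intervals of members and CGRP cells overlapped for Maf and Pcdh7. Thus, as group averages, the markers were higher in members than in the other neurons and the CGRP cells, but not in each cell. All 3 stand in a marker list that the study chose on these same cells, so their direction is a description.

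**Figure D1:**
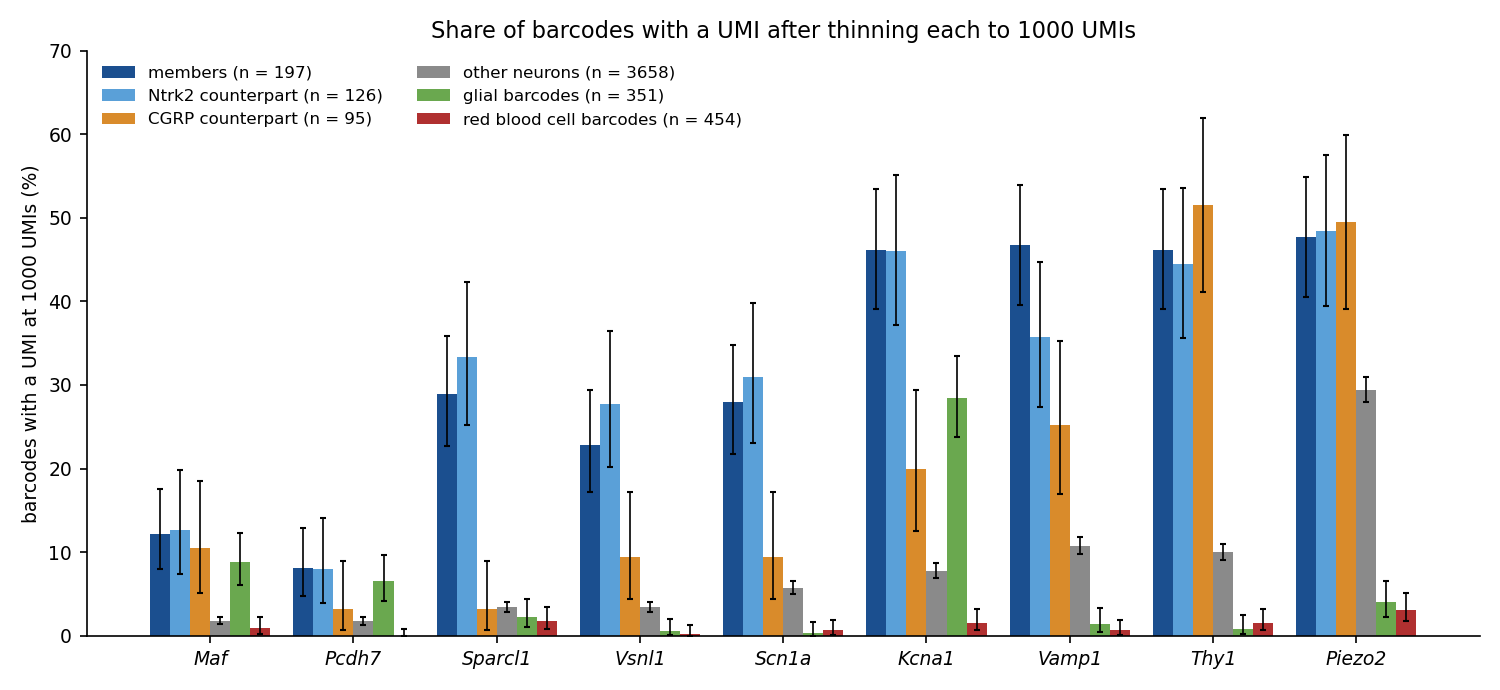
Share of barcodes with a UMI (vertical axis, percent) of 9 genes after each barcode was thinned to 1000 UMIs, for the members, 2 counterparts, the other neurons and 2 kinds of background barcode; bars start at 0 and whiskers are exact 95% intervals. Members (dark blue) stood above the other neurons (grey) for all 9 genes. The gap to the CGRP counterpart (orange) was wide for Sparcl1, at 28.9% against 3.16%, while the intervals overlapped for Maf, Pcdh7, Vsnl1, Thy1 and Piezo2.

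Against the other neurons, 1001 of 13697 genes (7.31%) had a CPM ratio of 2 or more in members and 1623 (11.8%) a ratio of 0.5 or less, with a median log2 ratio of -0.12. These shares are the background for the counts of listed genes that follow. The share at 2 or more was 4.63% for genes with 100 or more UMIs. The gate removed cells with Trpv1, Mrgprd, Trpm8 or much Calca from the members, so genes that accompany those in other neurons were lowered in part by the choice itself, and all ratios are given as a description.

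The highest ratio among genes seen in at least 20% of members belonged to Rasgrp2, which encodes an exchange factor for Rap GTPases (chromosome 19, 6399340 to 6415216, plus strand). It had 104 CPM (84.5 to 126) in members and 10.5 in the other neurons, a log2 ratio of 3.31 (2.95 to 3.66). Only 3.05% of members had it at 1000 UMIs, so the level rested on the deeper cells. Vsnl1, a neuronal calcium sensor (chromosome 12, 11325242 to 11436613, minus strand), followed at 351 CPM against 51.3, a log2 ratio of 2.78. The median member had none and the highest had 20 UMIs. Igf1, a growth factor, had 115 CPM against 19.4, and Syt3, a synaptotagmin, 92.4 against 15.7. Serpinb1a, an inhibitor of serine proteases, had 351 CPM against 67.2. The secreted peptides Fam19a2 and Fam19a1, with Clec2l, Arap2, Clrn1 and Syne4, had log2 ratios of 2.28 to 2.68.

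Besides the genes just named and Maf, Pcdh7 and Sparcl1, the rest of the 20 genes were of the membrane and axon. They were the sodium channel Scn1a, the potassium channels Kcna1 and Kcnh2, the axonal adhesion protein Cntnap2, the synaptic organiser Slitrk4 and the neurotrophin receptor Ntrk3, with log2 ratios of 2.18 to 2.30. The log2 ratios of all 20 ran from 2.18 to 3.31. At 1000 UMIs the 20 genes were in 3.05 to 46.2% of members and 0.547 to 7.79% of the other neurons. Under the 17 other settings that can change these values, the log2 ratios lay between 1.61 and 3.98. The 20 were chosen as the highest in these same cells, so their direction in either measure is a description.

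Small-fibre and peptide genes lay at the other end. Trpa1, the irritant channel of nociceptors, had 2 UMIs in all members (2.05 CPM) against 127 CPM in the other neurons, a log2 ratio of -5.95 (-8.996 to -4.09). Gfra3, the receptor of the growth factor artemin, had 3.08 CPM against 169, a log2 ratio of -5.78 (-8.06 to -4.23). The neuropeptide galanin, Gal, had 14.4 CPM against 312, and the calcium pump Atp2b4 had 6.16 against 120. Emp3, Tmem45b, Ahnak, Celf6 and Ly86 had log2 ratios of -4.72 to -3.77. Vip, a vasoactive peptide, had a single UMI in members and 122 CPM in the other neurons, a log2 ratio of -6.89 (-12.19 to -4.41). That last contrast was carried by few cells, because only 1.18% of the other neurons had Vip and 10 of them held 79.5% of its UMIs, and with no condition on S100b it shrank to -0.47. The other 9 of the 10 lowest genes, also chosen in these cells, had a ratio of 0.5 or less under those 17 settings.

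**Figure D2:**
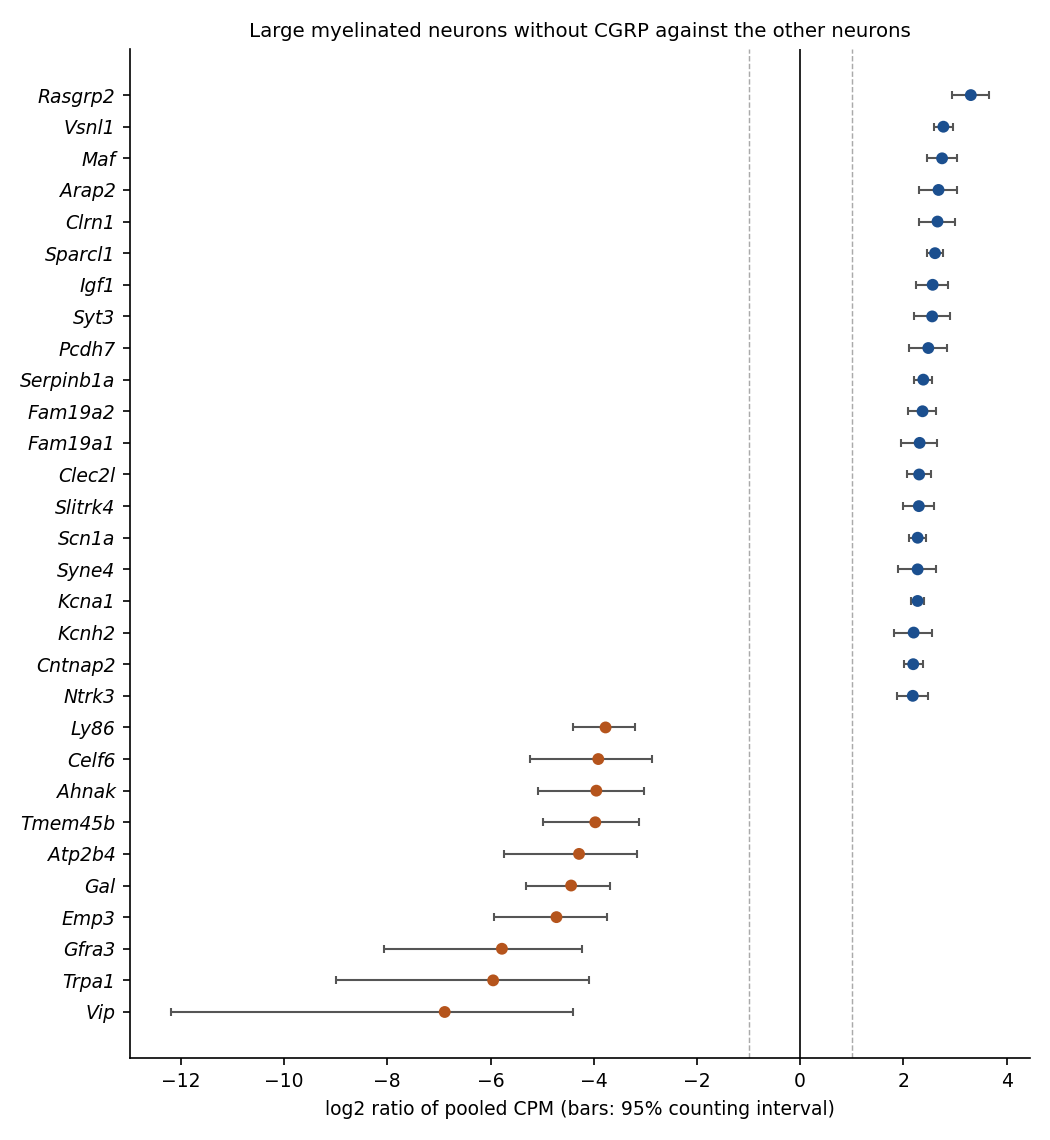
Log2 ratio of pooled CPM in members over the other neurons (horizontal axis) for the 20 highest (blue) and 10 lowest (orange) genes by the fixed rule; bars are 95% counting intervals, the solid line marks equal levels and the dashed lines a ratio of 2 either way. The high genes lie between 2.18 and 3.31 with short bars, and the low genes reach -6.89 with long bars because they rest on few UMIs.

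Grouped by role, genes of the node of Ranvier and of axon adhesion were mostly higher in members. These proteins hold sodium and potassium channels in place along a myelinated axon and join axon to glia. Of 20 such genes, 13 had a ratio of 2 or more and none 0.5 or less, with a median log2 ratio of 1.51. Cntnap2, which anchors potassium channels beside the node, had 300 CPM against 65.7, and Cntn1, a contactin of the axon surface, 451 against 141. Cntnap1, the contactin-associated protein that flanks the node, had 132 CPM against 42.2. Thy1, a surface glycoprotein of large neurons, had 571 CPM against 162, with a median of 2 UMIs per member (0 to 33) and 0 per other neuron. Nfasc and Lgi3 also belonged to the 13, but glial barcodes held both in larger shares at 1000 UMIs (39.0% and 28.8%) than members did (17.8% and 17.3%). Members had 146 CPM of Nfasc and 208 CPM of Lgi3, and the part of glial RNA in these levels was not tested. Ank3 and Ank2, the ankyrins of the node and axon, were not among the 13, at log2 ratios of -0.89 and -0.05.

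Among 12 tested sodium channel genes, 3 had a ratio of 2 or more and 2 had 0.5 or less. Scn1a, the fast channel Nav1.1 (chromosome 2, 66270778 to 66440840, minus strand), had 372 CPM (334 to 412) in members and 76.7 in the other neurons, and was in 62.4% of members with 1 UMI in the median cell. Scn8a, the node channel Nav1.6, had 168 CPM against 64.1. The nociceptor channels went the other way. Scn10a had 63.7 CPM against 408, and Scn11a 57.5 against 386. Scn1a and Scn8a thus lay above the other neurons and Scn10a and Scn11a below them, while 7 of the 12 genes lay within 2-fold.

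Of 14 genes grouped as fast potassium channels, Kcna1 and Kcnk1 had a ratio of 2 or more and Kcnc2 a ratio of 0.5 or less, with a median log2 ratio of 0.53. Kcna1, the Kv1.1 channel beside the node (chromosome 6, 126640397 to 126646384, minus strand), had 595 CPM (548 to 646) in members against 123. It was in 73.6% of members, with a median of 2 and a maximum of 37 UMIs. Glial barcodes also held it, in 28.5% at 1000 UMIs, and members in 46.2%. The part of glial RNA in its level was not tested. Among 8 genes of the HCN pacemaker and M-type potassium channels, 4 had a ratio of 2 or more, with Hcn2 and Kcnq3 among them, and Kcnq5 had 0.5 or less. Hcn2, a pacemaker channel, had 20.5 CPM against 10.1, and Kcnq3, an M-channel subunit, 58.5 against 16.5. Calcium channels showed a different pattern, with 1 of 10 at a ratio of 2 or more (Cacna1d) and 4 at 0.5 or less. These 4 included the auxiliary subunits Cacna2d1 (117 CPM against 369) and Cacna2d2 (40.0 against 136).

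Mechanotransduction genes were mostly at similar levels. Of 10 tested, only the acid-sensing channel Asic3 had a ratio of 2 or more, at 373 CPM against 127, and Stom and Stoml3 had 0.5 or less. Piezo2, the channel of touch, was in 73.6% of members with a median of 2 UMIs (0 to 41), and in 46.6% of the other neurons. Its levels were 783 CPM and 582 CPM, a log2 ratio of 0.43 (0.32 to 0.53). More members than other neurons thus held Piezo2, while the pooled level differed by less than 2-fold.

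Transcription factors separated the group in both directions. Of 23 tested, 9 had a ratio of 2 or more and 5 had 0.5 or less. Runx3, a factor of TrkC-bearing sensory neurons, had 32.9 CPM against 1.70, and Esrrg, an oestrogen-related nuclear receptor, 25.7 against 2.31. Meis2 had 203 CPM against 48.4 and Shox2, a factor needed for touch neurons, 18.5 against 4.01. Runx1, which drives small-fibre fates, had 12.3 CPM against 147, and Prdm12, a factor of nociceptors, 33.9 against 181. Runx3 was seen in only 11.2% of members and Esrrg in 9.64%, so these 2 ratios rested on few members, while Meis2 was in 44.2% and Maf in 35.0%.

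Growth factor receptors were uneven. Of 9 tested, Ntrk3, Gfra1 and Ngfr had a ratio of 2 or more and 4 had a ratio of 0.5 or less, with Kit, Gfra2 and Gfra3 among them. Ntrk3, which encodes TrkC, the receptor of neurotrophin-3 (chromosome 7, 78175959 to 78738012, minus strand), had 120 CPM against 26.5. Ret, the shared signalling receptor of the GDNF family, had 296 against 290. Among 17 calcium-binding proteins, Calb1, Pvalb, S100a16 and Vsnl1 had a ratio of 2 or more, and 5 had 0.5 or less. The other S100 genes measured did not follow S100b as a family. S100a6 had 745 CPM against 2503 and S100a11 19.5 against 143. S100a16 was in 37.0% of glial barcodes at 1000 UMIs and in 3.55% of members.

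A list of 10 genes named for proprioceptors, several of which other large sensory neurons also use, had 7 at a ratio of 2 or more and Etv1 at 0.5 or less, with a median log2 ratio of 2.25. Parvalbumin, Pvalb (chromosome 15, 78191114 to 78206400, minus strand), had 203 CPM against 24.7. It was in only 31 members (15.7%), with 10 cells holding 77.8% of its UMIs. Spp1, osteopontin, had 117 CPM against 19.3 in 16.2% of members. Etv1, a factor of proprioceptors, had 10.3 CPM against 25.2, and Whrn, another gene of the list, had no UMI in members and 2.46 CPM in the other neurons. The genes of this list were thus neither uniformly present nor carried by most members.

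At the synapse, Cplx1, Slc17a7, Sv2b, Syt2 and Vamp1 had a ratio of 2 or more among 21 genes of glutamate release and vesicles, and 4 had 0.5 or less. Vamp1, the vesicle protein of fast synapses, had 585 CPM against 151 with a median of 2 UMIs (0 to 30), and Syt2, a fast calcium sensor, 326 against 80.7. Syt7, a slower calcium sensor, went the other way at 42.1 against 218, as did Syt9 at 20.5 against 92.5. The main vesicular glutamate transporter of these ganglia, Slc17a6, differed little at 484 against 396. Of 21 GABA and glutamate receptor genes, 8 had a ratio of 2 or more. They included the GABA-A subunits Gabra2 (259 CPM against 113), Gabra5 (60.6 against 15.1) and Gabrg1 (48.3 against 6.32). Grik1, a kainate receptor subunit, was among the 5 at 0.5 or less, at 59.5 against 272. Of 25 cadherin and guidance genes, 8 had a ratio of 2 or more and 2 had 0.5 or less. Slit2, a secreted guidance cue, had 32.9 CPM against 3.66, and the ephrin receptor Epha4 had 58.5 against 9.87.

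Of 18 ion pump and exchanger genes, 5 had a ratio of 2 or more and 4 a ratio of 0.5 or less. The calcium pump Atp2b2 had 280 CPM against 104. Fxyd2, a regulator of the sodium pump, had 183 CPM against 2207. Of 26 energy genes, 4 had a ratio of 2 or more (Ldhb, Ckmt1, Fabp3 and Ppargc1a) and none 0.5 or less, with a median log2 ratio of 0.53. Ldhb, the lactate dehydrogenase subunit of oxidative tissue, had 963 CPM against 323. Neurofilament partners were mixed. Of 10 axon cytoskeleton genes outside the gate, Map2 (330 CPM against 122) and Tuba4a (436 against 159) had a ratio of 2 or more, and Ina, internexin, 0.5 or less. The 6 mitochondrially encoded genes tested were all higher in members by less than 2-fold, with a median log2 ratio of 0.86. The mitochondrial share of a cell's UMIs had a median of 1.70% in members and 1.14% in the other neurons, and 6 members were above 20%. With cells above 1.5% left out on both sides, 68 members remained, and the log2 ratio of Maf was 3.46 and that of Kcna1 2.53. The part of the mitochondrial share in the energy genes was not tested.

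Nociceptor genes were mostly low. Of 16 tested, 10 had a ratio of 0.5 or less and F2r, Htr1f and Oprd1 a ratio of 2 or more, with a median log2 ratio of -1.91. Oprd1, an opioid receptor, rested on 4 UMIs, and the interval of its log2 ratio included 0. Of 18 neuropeptide and granule genes, 8 had a ratio of 0.5 or less. Tac1, which encodes substance P, had 256 CPM against 2696, with 25.9% of members and 68.9% of the other neurons holding a UMI. Calcb, the second CGRP gene, had 42.1 CPM against 481, and Nmb, neuromedin B, 63.7 against 318. Chgb, a granule protein, was the exception at 637 against 238. The itch peptides Nppb and Sst and the itch receptor Il31ra were at 11.3 to 26.7 CPM, but a single member with 30290 UMIs held all 23 UMIs of Nppb, all 11 of Il31ra and 25 of 26 of Sst. Of 8 tested genes of C-fibre touch neurons, none had a ratio of 2 or more and 5 had 0.5 or less.

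Of 16 immediate early and injury genes, which dissociation can induce, 11 had a ratio of 0.5 or less and none 2 or more, with a median log2 ratio of -1.59. Fos had 241 CPM in members against 511 in the other neurons, and Atf3, a factor induced by axon injury, 67.8 against 193.

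**Figure D3:**
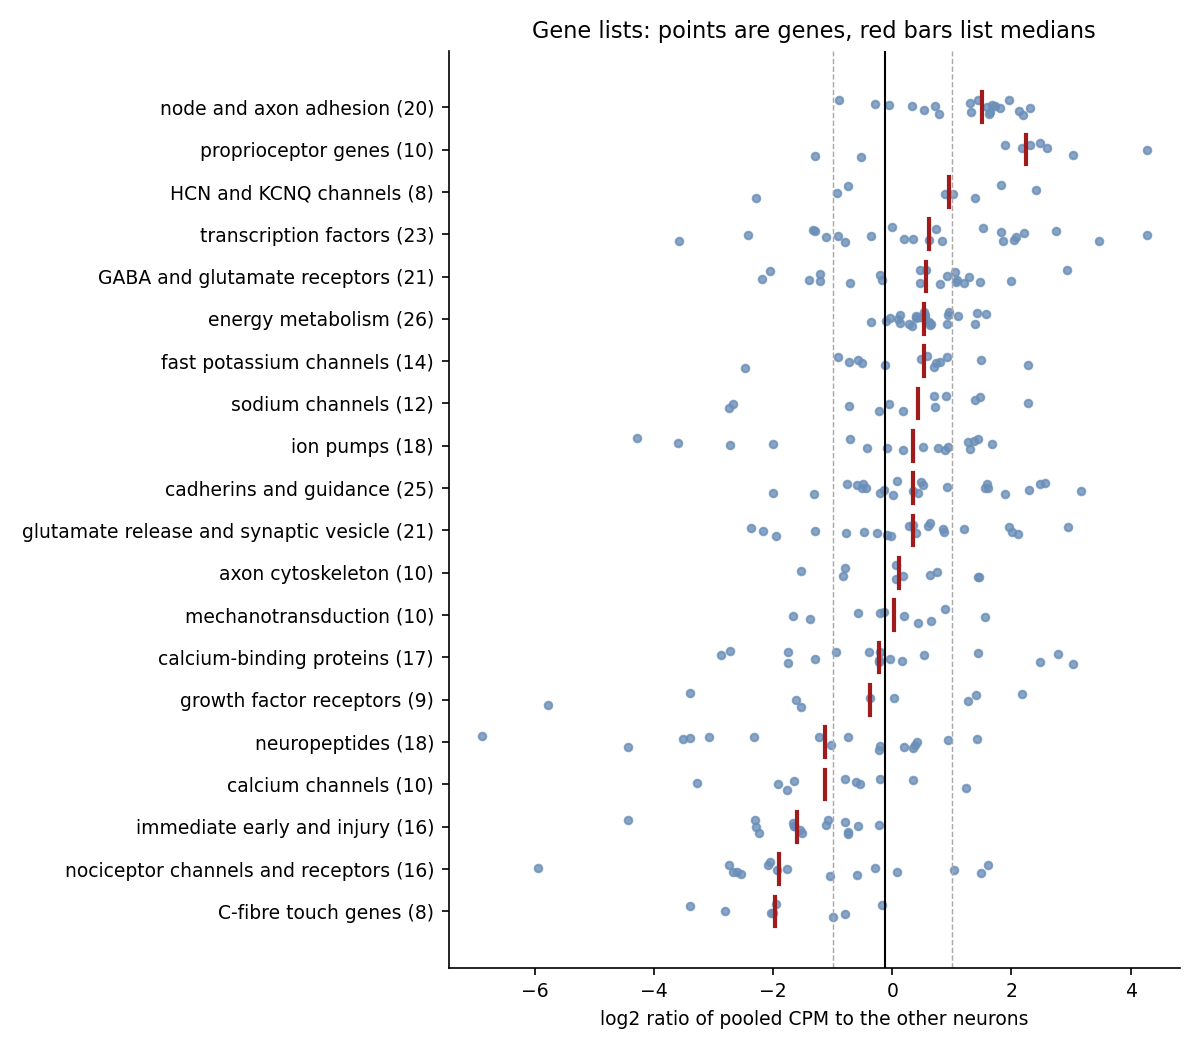
Log2 ratio of pooled CPM to the other neurons (horizontal axis) for the genes of 20 lists; each point is a gene, red bars are list medians, the black line is the median of all genes tested (-0.12), the dashed lines a ratio of 2 either way, and the number of genes tested is in parentheses. Node and axon adhesion genes cluster to the right with a median of 1.51, and nociceptor and C-fibre touch genes to the left with medians of -1.91 and -1.97.

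Fewer genes passed 2-fold against the Ntrk2 counterpart. Of 9200 genes, 200 (2.17%) had a ratio of 2 or more and 326 (3.54%) 0.5 or less. The share at 2 or more was 4.49% with each cell weighted equally, 4.12% after thinning to 1000 UMIs and 0.469% for genes with 100 or more UMIs, so it depended on the weighting and the filter. The 20 genes highest against the other neurons had a median log2 ratio of 0.29 to this counterpart, and of the 20 node and axon adhesion genes none had a ratio of 2 or more and only Lgi2 0.5 or less. Sparcl1 had 473 CPM in members and 621 in the counterpart, and Kcna1 595 and 621. Members and the TrkB-bearing cells thus held most of the 20 leading genes and of the node genes at levels within 2-fold. Other groups differed more. Of 8 nociceptor genes tested, 3 had a ratio of 2 or more and none 0.5 or less, with Scn10a at 63.7 CPM against 17.7, Scn11a at 57.5 against 16.8 and the thrombin receptor F2r at 70.8 against 22.1. Of the 10 genes lowest against the other neurons, 5 had a ratio of 2 or more to this counterpart and 2 had 0.5 or less. Some of these 10, Trpa1 among them, had fewer than the 20 UMIs required of other ratios, so nothing is read from this count. Of 8 growth factor receptors, 4 had 2 or more and Gfra2 0.5 or less.

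Some genes did separate them. Negr1, a neuronal adhesion protein, had 80.1 CPM in members and 12.4 in the Ntrk2 counterpart, a log2 ratio of 2.69 (1.86 to 3.63). Cplx2, a complexin, had 151 against 29.2, and Trappc3l, a trafficking gene, 416 against 114. The acid-sensing channel Asic1, with Syne4, Pcp4l1 and Tmeff2, had log2 ratios of 1.29 to 1.80. Gap43, a growth-cone protein, had 1160 CPM against 466, with a median of 2 UMIs per member and 1 per counterpart cell although the latter were deeper. The receptors Ntrk3, at 120 CPM against 53.9, and Ret, at 296 against 141, had higher CPM in members as well. For Ret, 10 members held 63.5% of the UMIs, and it was in 35.0% of members and 40.5% of counterpart cells, or 18.8% and 12.7% at 1000 UMIs. Lower in members were Lypd1 (16.4 CPM against 102), a modulator of acetylcholine receptors, the calcium-binding Necab2 (12.3 against 57.4), Lgi2 (20.5 against 83.9) and the T-type calcium channel Cacna1h (16.4 against 59.2). For Lypd1, 10 counterpart cells held 81.7% of the UMIs, so this contrast rested on few cells. The other genes low in members were Gm16065, Cadps2, Hbegf and Pdlim1, at log2 ratios of -2.11 to -1.64.

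Against the CGRP counterpart, 511 of 8823 genes (5.79%) had a ratio of 2 or more and 476 (5.39%) 0.5 or less. The share at 2 or more was 2.37% for genes with 100 or more UMIs and 3.04% with members held to 0 UMIs of Calca. Sparcl1 had 473 CPM in members and 55.3 in the CGRP counterpart, a log2 ratio of 3.10 (2.67 to 3.55), and Igf1 115 against 13.3. The guidance cue Sema3e had 86.2 against 13.3 and the transcription factor Mef2c 160 against 33.2. Pvalb had 203 CPM in members and 11.1 in the CGRP counterpart. Slitrk4, Osbpl1a and Ntsr2 had log2 ratios of 2.06 to 2.14, and Osbpl1a was also in 44.2% of glial barcodes at 1000 UMIs. Thy1, at 571 and 802 CPM, and Piezo2, at 783 and 567, lay within 2-fold.

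Genes low in members against the CGRP cells included the second CGRP gene, Calcb, at 42.1 CPM against 527. Chp2, a calcium-binding partner of sodium-proton exchangers, had 21.6 against 322 and was in 3.05% of members and 28.4% of CGRP cells at 1000 UMIs. S100a11 had 19.5 against 271, and the potassium channel Kcnt2 5.13 against 73.0. Mapkapk5 had a single UMI in members, and its log2 ratio of -4.63 had an interval of -10.00 to -2.01. Serpinb1b, Gpr149 and Emp3 were at log2 ratios of -3.94 to -3.26. The genes named as highest and lowest were chosen in these same 2 groups, so their direction is a description.

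**Figure D4:**
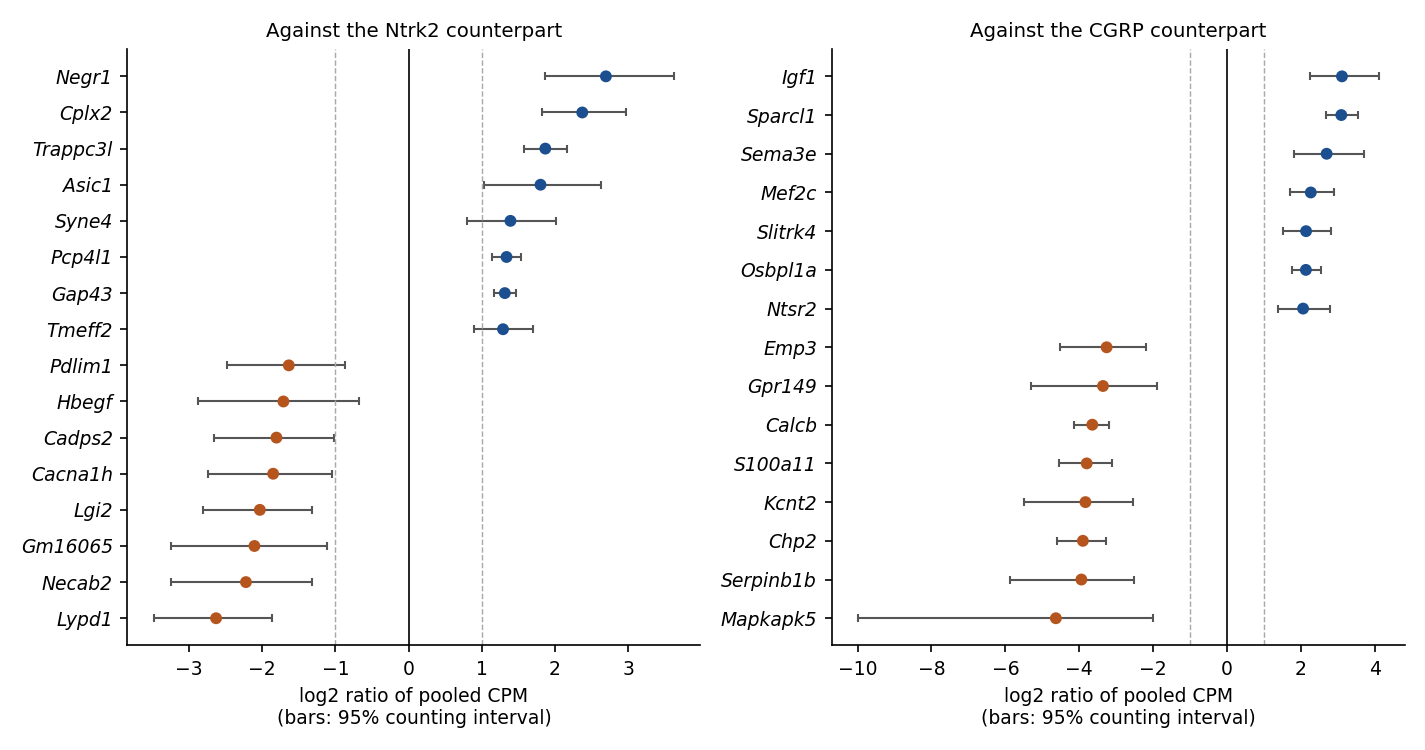
Log2 ratio of pooled CPM in members over the Ntrk2 counterpart (left) and the CGRP counterpart (right) for the named genes of each, high (blue) and low (orange); bars are 95% counting intervals and dashed lines mark a ratio of 2 either way. Values run from -2.63 (Lypd1) to 2.69 (Negr1) on the left and from -4.63 (Mapkapk5) to 3.11 (Igf1) on the right.

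A further 79 neurons met every condition but had no UMI of S100b. Of 7639 genes, 670 (8.77%) had a ratio of 2 or more in members against these cells and 516 (6.75%) a ratio of 0.5 or less. The S100b-free cells had 178.6 CPM of Runx1 against 12.3 in members and 1084 of Tac1 against 256. They had 281 CPM of Kcna1 against 595 and 990.7 of Piezo2 against 783. Of the 20 genes highest against the other neurons, 17 had a ratio of 2 or more here, but these 20 were chosen as high in the same members against neurons that include the S100b-free cells, so nothing is read from this count. Cells with Nefh but without S100b thus held more Runx1 and Tac1 and less Kcna1. They were shallower, with a median of 2179 UMIs. Summed over 18 glial genes they had 4494 CPM pooled against 1033 in members, but 1 cell reached 182707 CPM, and the median cell had 379 CPM against 515. A glial UMI was in 59.5% of them and 75.6% of members, and the part of glial RNA in these ratios was not tested.

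The study had itself chosen marker lists for its 3 Nefh-rich clusters, named C4, C5 and C6, on these same cells, so their counts are not independent evidence. Against the other neurons 73 of 95 C4 genes, 35 of 92 C5 genes and 41 of 94 C6 genes had a ratio of 2 or more in members. Against the Ntrk2 counterpart 2 of 95 C4 genes did, none of 92 C5 genes did and 17 of these had 0.5 or less, and 16 of 94 C6 genes had 2 or more. Against the CGRP counterpart 39 of 95 C4 genes and 29 of 91 C5 genes had 2 or more, and 28 of 94 C6 genes 0.5 or less. The C4 genes had a median log2 ratio of 1.44 to the other neurons, -0.02 to the Ntrk2 counterpart and 0.84 to the CGRP counterpart.

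The members were not alike among themselves. Of the growth factor receptors, Ret had a UMI in 69 members, Ntrk3 in 59 and both together in 26. Members with Ret had a median of 4096 UMIs and those without 2394, and for Ntrk3 the medians were 5131 and 2254, so depth and receptor content moved together and their parts cannot be told apart from these counts. Splits of the members by a receptor, a calcium-binding protein or a factor are given next as levels per UMI. Among the genes named with them, Trappc3l, Ptgir, Htr3a, Cplx2 and Cpne4 stand in the study's C6 list and Cbln2 in its C5 list. Ngfr stands in both, Mef2c in C4 and C5, and Sparcl1 and Maf in C4. The genes set beside each split were singled out after their values had been seen.

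Scn10a had a UMI in 30 members. Of these 30, 20 had Trappc3l, 12 had Ptgir, the prostacyclin receptor, and 10 had Htr3a, a serotonin-gated channel, where 66, 21 and 30 of all 197 members did. Sparcl1 was in 5 of the 30 members with Scn10a and in 89 members in all, and Calb1 was in 1 of the 30.

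The 31 members with Pvalb (median 4399 UMIs) had more neurofilament transcripts than the 166 without. Nefm was 27063 CPM in them against 11851 and Nefl 26833 against 12839. Sparcl1 had 1360 CPM against 257, a log2 ratio of 2.41 (2.13 to 2.68). Spp1 had 319 CPM against 67.7, Igf1 256 against 80.5 and Mef2c 324 against 120. Of the 31, 16 had Spp1, and so did 16 of the 166 without Pvalb. Piezo2 was lower in them, at 413 CPM against 874. Members with Pvalb thus held more of Spp1, Sparcl1 and the neurofilaments, and less of Piezo2.

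The 38 members with Calb1 shared 9 cells with the 31 that had Pvalb. Cbln2, a secreted synapse organiser, had 209 CPM in them against 33.3, and it was in 22 of the 38 members with Calb1 and in 15 of the 159 without. Spp1 was also higher, at a log2 ratio of 2.12. Scn10a had a single UMI in them, a log2 ratio of -4.64 (-9.97 to -2.11). Calb1 members had a median of 5965.5 UMIs and the others 2802, so this low count was found in the deeper cells.

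The 69 members with Ret held more Gfra1, the GDNF co-receptor that pairs with Ret, at 152 CPM against 38.0, and more Ngfr, the low-affinity neurotrophin receptor, at 492 against 175. Cplx2 had 255 CPM against 62.6 and the copine Cpne4 103 against 30.4, while Pvalb had 78.3 against 309. At 1000 UMIs the shares of members with and without Ret were 21.7% and 6.25% for Cplx2 and 27.5% and 14.8% for Ngfr. They lay close together for Gfra1, at 5.80% and 3.91%, and for Pvalb, at 7.25% and 9.38%, so the CPM contrasts of both genes hardly showed in these shares. The 59 members with Ntrk3 held less Htr3a, at 16.2 CPM against 113. The 69 members with Maf had 123 CPM of Ntrk3 against 116 in those without, while its shares at 1000 UMIs were 14.5% and 5.47%. They had higher CPM of Pvalb (272 against 123) and Igf1 (156 against 67.1). At 1000 UMIs the order for Pvalb was the opposite, with a UMI in 7.25% of members with Maf and 9.38% of those without, and Igf1 was in 10.1% and 6.25%. Ret and Maf were together in 29 members.

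**Figure D5:**
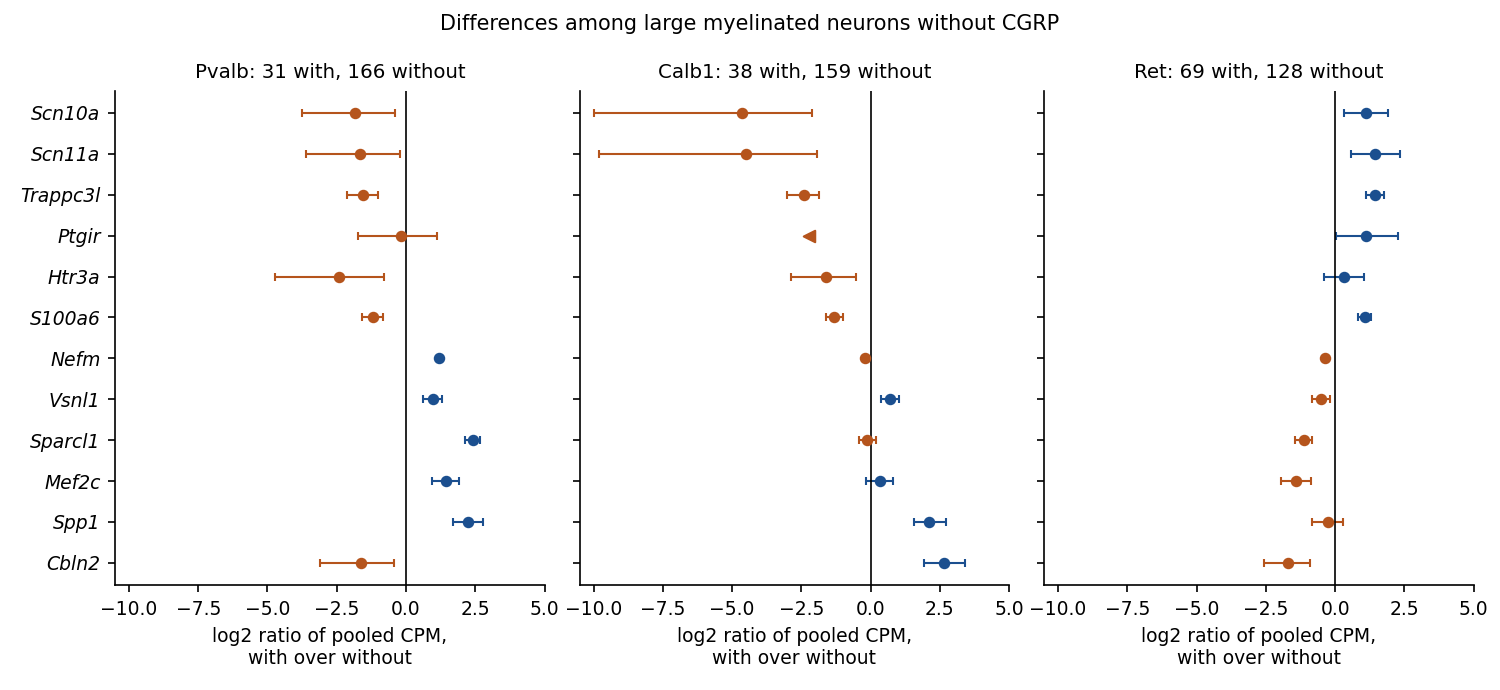
Log2 ratio of pooled CPM in members with a UMI of Pvalb, Calb1 or Ret over members without (horizontal axis of each panel) for 12 genes; bars are 95% counting intervals and a triangle marks an upper bound where the members with the split gene had no UMI. Scn10a, Scn11a, Trappc3l and S100a6 lie to the left for Pvalb and Calb1 and to the right for Ret, and Spp1 lies to the right for Pvalb and Calb1, at log2 ratios of 2.24 and 2.12.

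Transcripts of other cells were measured in the same barcodes. A UMI of at least 1 of the 18 glial genes was in 149 members (75.6%) and 82.4% of the other neurons, against 41.2% of red blood cell barcodes. Summed over the 18 genes, members had 1033 CPM, the other neurons 2853 and glial barcodes 147829, and Prx and Cldn19 were at 0 in members. Against the other neurons Mbp, a gene of myelin, had a log2 ratio of -1.55, but this turned to 0.49 against other neurons with 3 or more UMIs of Nefh. Haemoglobin and other red blood cell genes were in 93.9% of members and 94.0% of glial barcodes, and Hba-a2 and Hemgn were among those at 0 in members. Pituitary, endothelial, fibroblast and mural, and olfactory lists were at or below their summed level in the other neurons (273, 50.3, 25.7 and 57.5 CPM in members against 1100, 52.0, 144 and 126). Immune genes were at 6.16 CPM against 3.31, with Ptprc, Cd52, Tyrobp and C1qa at 0.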

How the data were processed

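Drop-seq captures single cells with barcoded beads and counts transcripts by unique molecular identifiers (UMIs). The authors deposited 1 table of raw UMI counts per gene and cell barcode for the 9 runs together, with 21536 genes and 6997 barcodes, the smallest with a total of 1000 UMIs. The submitters' processing notes name bcl2fastq 2.17, STAR 2.5.3a, Seurat 1.4.0.16 and the mouse build mm10. Positions come from GENCODE M21 on GRCm38, matched by symbol.

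Counts were used as deposited. Levels are pooled CPM, which weight deep cells more, and ratios cover genes with 20 or more UMIs in both groups together. Count intervals are exact Poisson, share intervals Clopper-Pearson and ratio intervals conditional binomial, all at 95%. A gene at 0 in a group was set to a floor of 3 counts over the group. Background barcodes had 200 or more genes and fewer than 3 of the neuronal genes, with 10 or more UMIs of 4 glial genes, Mbp and Fabp7 among them, or UMIs of at least 2 of 5 red blood cell genes, Alas2 and Hemgn among them. No doublet caller was run and no doublets were removed. The scripts were tested on simulated data.

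Named genes, outside the gate, were the 20 highest ratios to the other neurons among genes with a UMI in at least 20% of members and the 10 lowest among those with at least 100 CPM in the other neurons. Against each counterpart they were the 8 highest and 8 lowest among genes in at least 20% of the cells of the higher group. Genes of the lists could be named too. Some genes that these rules select are not reported here. Receptors, calcium-binding proteins and factors in 10 to 60% of members served to split them. The members and lists were chosen with earlier results of these data known. The 19 alternatives changed the gate, weighting, thinning or gene filter, and 4 of them were added after seeing the data. Python 3.11.15, numpy 2.4.6, scipy 1.17.1, pandas 2.3.3 and matplotlib 3.10.9 were used.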

Additional observations from a re-analysis of the deposited data

How the results depend on the processing

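No paired analysis was possible because the columns carry no run, and for the same reason no run could be left out in turn. Leaving out the gene filters, which cannot change a named gene's ratio, 1208 values of 73 named comparisons were computed under 17 alternatives. Of these, 1197 kept their sign, 222 moved beyond their counting interval and 11 changed sign. Of these 11, 9 were of Ret, which lay near 0 at a log2 ratio of 0.03 and ran down to -0.77, and 2 were of Mbp. With 5 or more of the 6 neuronal genes required, Mbp turned to a log2 ratio of 0.46, and against other neurons with 3 or more UMIs of Nefh to 0.49. The share of neurons that were members, 5.11%, became 5.86% with 5 or more neuronal genes, 4.05% with no Calca, 3.94% with 5 or more UMIs of Nefh, 4.23% with 2 or more of S100b and 7.16% with no condition on S100b. The share of genes at a ratio of 2 or more to the other neurons, 7.31%, became 4.63% for genes with 100 or more UMIs. Against the Ntrk2 counterpart, 2.17% became 4.49% with each cell weighted equally, 5.73% for genes with 1 or more UMI, 0.469% for genes with 100 or more, 4.12% after thinning and 4.40% without cells holding a UMI of Mbp or other myelin genes. Against the CGRP counterpart, 5.79% became 3.04% with no Calca and 2.37% for genes with 100 or more UMIs. The cause of these moves was not tested, save that the gene filters change the genes counted. The log2 ratio of Maf to the other neurons ran from 2.15 to 3.46, that of Kcna1 from 1.73 to 2.81 and that of Pvalb from 2.24 to 4.15. Mbp had no value without those cells. With a median of 3042 UMIs per member, a gene absent from a cell may be undetected there, Ntrk2 and Calca included.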
